A study of Homo sapiens with 6 samples.

Results

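Cells copy their DNA with a set of protein machines that act in a fixed order, and the transcripts of 57 genes for these machines are described here. They were taken by name from the 33707 genes of the table and sorted by complex, from origin recognition and licensing through the helicase, the polymerases, the sliding clamp and Okazaki fragment maturation to maintenance methylation. All 57 were found. The RNA came from Huh7, an established human hepatocellular carcinoma line, at day 2 after lipid transfection with miR-361-3p mimics (synthetic microRNA) or with mimics-NC, the negative control mimic, in 3 libraries each. Both groups are the same parental line and differ, per the titles, only in the transfected mimic. The mimics-NC libraries carry a genotype tag of WT and a treatment tag that names wild type cells, whereas their titles name mimics-NC. One mimic library, replicate 3, has Huh8 in its cell line tag and Huh7 in its title, and it stayed in its group. Whether the replicates came from separate cultures is not stated in the labels, and the p-values here rest on the spread among libraries, which may be technical.

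A microRNA pairs through its seed with sites in target messenger RNAs, which lowers their level or translation. The mature sequence of miR-361-3p in RefSeq (GRCh38.p14, chrX:85903641-85903663, minus strand), shown because the mimic carries its name, follows with its seed of bases 2 to 8 in capitals. Whether the mimic used has this sequence was not checked.
hsa-miR-361-3p: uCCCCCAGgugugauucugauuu

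Replication starts when the origin recognition complex, with CDC6 and CDT1, loads rings of the MCM2-7 helicase onto DNA, a step called licensing that geminin blocks by binding CDT1. In S phase the kinases DDK and CDK, with TICRR, TOPBP1, RECQL4 and MCM10, add CDC45 and the GINS complex to the ring and so switch the helicase on. Polymerase alpha-primase then makes primers, polymerase epsilon extends the leading strand and polymerase delta the lagging strand, while PCNA, loaded by the RFC complexes, tethers them to DNA. Many of these genes are known targets of E2F transcription factors and are transcribed mainly in late G1 and S phase of dividing cells.

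The libraries held 35020139 to 52977132 assigned reads, and each member had at least 142 reads in every library. Levels are in RPKM, reads per kilobase of merged exon length and per 1000000 assigned reads, and fold changes are differences of log2(RPKM + 0.5), mimic minus mimics-NC. Mitochondrial genes took 5.95% to 6.32% of reads with mimics-NC and 5.58% to 6.79% with the mimic. The 9 hepatocyte markers, led by FGB and APOB, summed to 3102 to 3186 RPKM with mimics-NC and 2965 to 3040 RPKM with the mimic, whereas AFP, the alpha-fetoprotein gene for which Huh7 is known, had means of only 1.24 and 1.18 RPKM. Of 12 hepatocyte and other-lineage markers abundant enough to test, limma called 0, with 1 below 0.05 before adjustment (FGB) and 1 called by voom. The immune markers summed to 43.7 to 47.6 and 44.4 to 50.6 RPKM, mostly CD68, with PTPRC and CD3E near 0. The endothelial markers summed to 4.25 to 4.33 and 4.31 to 4.67 RPKM, mostly PECAM1, with VWF and CDH5 near 0. The fibroblast or stellate markers summed to 1.56 to 2.76 and 1.21 to 1.59 RPKM and the cholangiocyte markers to 1.09 to 1.42 and 1.54 to 1.65 RPKM. The hepatocyte sums were lower and the cholangiocyte sums higher in all 3 mimic libraries, but neither shift was shared by every marker. Mean FGB went from 2106 to 1947 RPKM, while APOB went from 448 to 480 RPKM. Of the 9 hepatocyte markers 7 had negative and 2 positive log2 fold changes. Mean SOX9 went from 0.740 to 1.01 RPKM and EPCAM from 0.223 to 0.329 RPKM, while KRT19 went from 0.107 to 0.0872 RPKM. The part of these shifts in the results was not tested.

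The replication genes were lower with the mimic across nearly every complex. Of the 57 members 38 fell and 0 rose by limma (adjusted p under 0.05), whereas 9.85% of all 13158 genes tested fell and 11.7% rose (21.5% in either direction). At an unadjusted p under 0.05, 45 members were lower and 0 higher, against 16.3% and 19.5% of all genes. By voom, limma's method for counts, run on recovered reads, 42 were lower and 0 higher, against 13.4% and 15.7%. The median log2 fold change of the members was -0.31, against 0.012 over all genes tested, and 53 of the 57 values were negative, against 47.0% of all genes. All 3 mimic libraries lay below all 3 mimics-NC libraries for 46 members and above them for 1, while 19.1% of all genes tested lay wholly below and 22.3% wholly above. The falls were moderate: among the 38 genes the mean RPKM was 10.8% to 42.5% lower, with a median of 24.7%, and 5 of them fell by more than 1.5-fold, as did 1.25% of all genes. Those 5 were CHAF1B, UHRF1, FEN1, RECQL4 and TICRR. Summed over the 57 genes, RPKM was 1218, 1207 and 1208 with mimics-NC and 968, 995 and 997 with the mimic. In bulk RNA, fewer cells that hold these transcripts and less RNA per cell cannot be told apart.

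**Figure D1:**
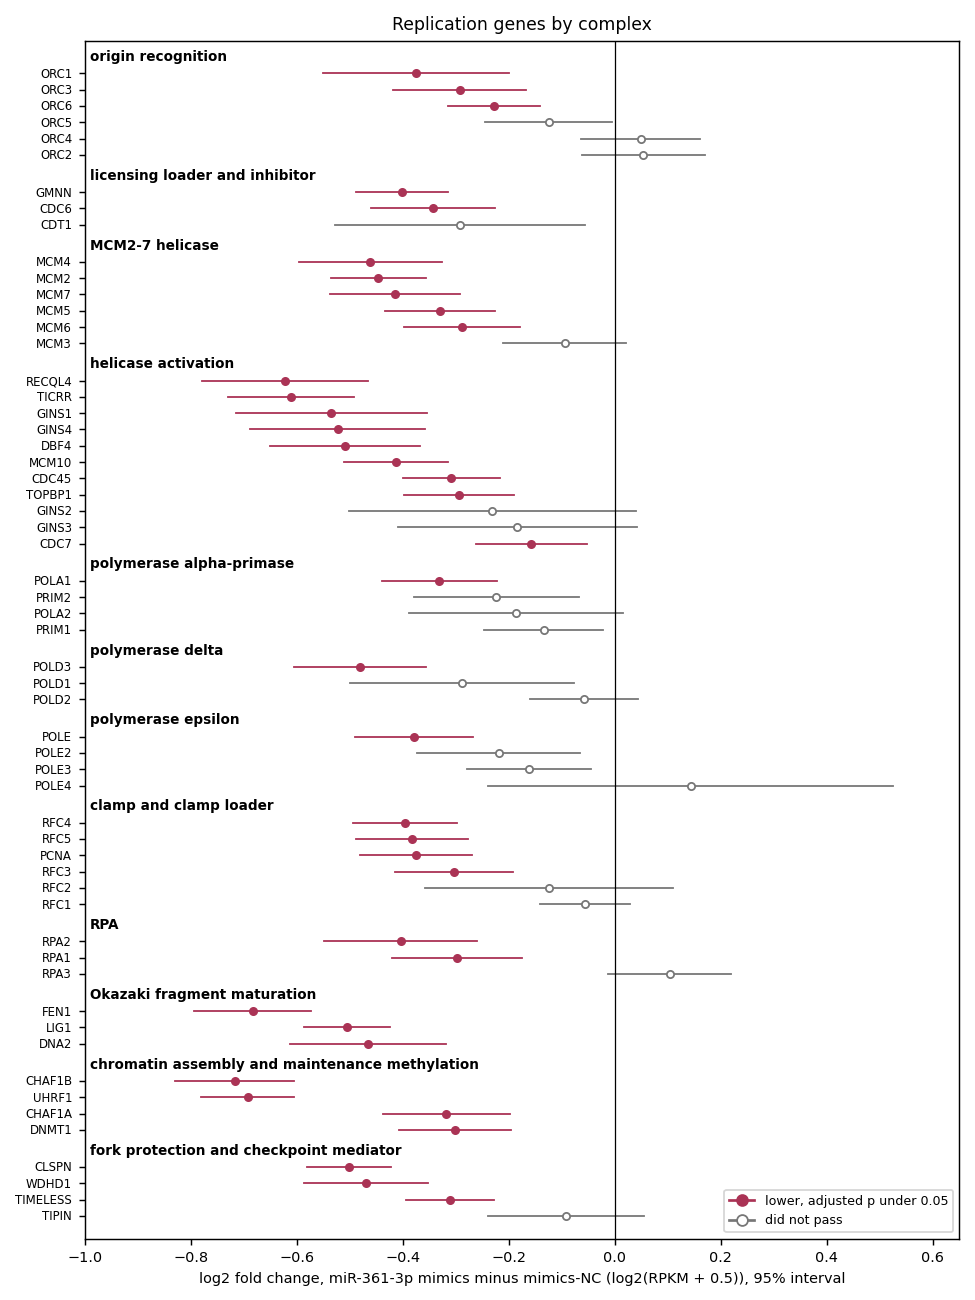
Log2 fold change of each of the 57 replication genes (horizontal axis, log2(RPKM + 0.5), mimic minus mimics-NC), grouped by complex, with 95% intervals from limma over 3 libraries per group. Filled points are the 38 genes that fell, open points the 19 that did not pass; values run from -0.72 for CHAF1B to 0.14 for POLE4.

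The size of the change was only weakly related to abundance or length among the members. Mean levels with mimics-NC spanned 1.81 RPKM for POLA2 to 177 RPKM for MCM3, with a median of 13.4 RPKM. Spearman's rho of the fold change with that level was -0.11, and with merged exon length -0.23, across 57 genes measured in the same 6 libraries. These are descriptions across genes, which are not independent replicates.

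The origin recognition genes differed in their values. Of the 6 ORC genes 3 fell, ORC1, ORC3 and ORC6, and the list had a median log2 fold change of -0.18. ORC1, the largest subunit, which in human cells is made and destroyed with each cycle (chromosome 1, 52372829 to 52404459, minus strand, GRCh38 as are all positions here), measured 8.11, 6.92 and 7.44 RPKM with mimics-NC and 5.46, 6.18 and 5.33 RPKM with the mimic. Its groups did not overlap, with a log2 fold change of -0.38 (SE 0.074, adjusted p = 0.0135). ORC3, which lies in the core of the ring, measured 6.79, 6.32 and 6.30 RPKM with mimics-NC and 5.33, 5.36 and 4.89 RPKM with the mimic, with a log2 fold change of -0.29 (SE 0.053, adjusted p = 0.00978). ORC6, the smallest subunit, had 14.3, 13.6 and 14.1 RPKM with mimics-NC and 11.7, 11.9 and 12.1 RPKM with the mimic and a log2 fold change of -0.23 (SE 0.037, adjusted p = 0.00612). Every mimic library was below every mimics-NC library for these 3 genes. ORC2, a core subunit at a higher level than ORC1 per length, measured 24.2, 23.5 and 25.0 RPKM with mimics-NC and 26.3, 23.6 and 25.5 RPKM with the mimic. The ORC2 groups overlapped, and the 95% interval of its log2 fold change was -0.061 to 0.17 around 0.054. ORC4, an ATP-binding core subunit and the one nearest 0, had 5.28, 4.92 and 5.08 RPKM with mimics-NC and 5.17, 5.51 and 5.18 RPKM with the mimic, again with overlap, and an interval of -0.064 to 0.16 around 0.048. ORC5, the neighbour of ORC4 in the ring, had a log2 fold change of -0.13 with an interval of -0.24 to -0.0058. All 3 mimic libraries of ORC5 lay below the mimics-NC libraries, but it did not pass (adjusted p = 0.125).

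Among the factors that load the helicase, CDC6 and the inhibitor geminin fell, while CDT1 did not pass. CDC6, the ATPase that completes the loading complex (chromosome 17, 40287633 to 40304657, plus strand), measured 37.0, 39.9 and 38.6 RPKM with mimics-NC and 31.9, 28.6 and 30.4 RPKM with the mimic, a log2 fold change of -0.34 (SE 0.049, adjusted p = 0.00403). GMNN, encoding geminin (chromosome 6, 24774931 to 24786099, plus strand), measured 52.1, 51.6 and 51.3 RPKM with mimics-NC and 37.8, 40.7 and 38.6 RPKM with the mimic, a log2 fold change of -0.40 (SE 0.037, adjusted p = 0.00073). The groups of both genes lay clearly apart, with GMNN 24.5% lower on average. CDT1, the MCM chaperone at origins, was the scarcest of the 3, at 1.79, 1.92 and 2.05 RPKM with mimics-NC and 1.76, 1.40 and 1.29 RPKM with the mimic. Its groups did not overlap, but the replicate 1 mimic library nearly touched the lowest mimics-NC value, and the log2 fold change of -0.29 (SE 0.10, adjusted p = 0.0811) missed the threshold. Without that library the adjusted p was 0.0283, and by voom it was 0.0157.

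Of the 6 ring subunits of the replicative helicase 5 fell, and MCM3 did not pass. MCM2, the subunit that also binds histones (chromosome 3, 127598223 to 127622436, plus strand), measured 23.1, 23.8 and 22.5 RPKM with mimics-NC and 16.5, 16.7 and 17.4 RPKM with the mimic, a log2 fold change of -0.45 (SE 0.038, adjusted p = 0.000582). MCM4, one of the catalytic subunits (chromosome 8, 47960185 to 47978160, plus strand), measured 29.3, 25.9 and 26.1 RPKM with mimics-NC and 19.0, 20.4 and 19.1 RPKM with the mimic, a log2 fold change of -0.46 (SE 0.057, adjusted p = 0.00229). MCM7, another catalytic subunit (chromosome 7, 100092728 to 100101940, minus strand), measured 47.9, 48.4 and 44.1 RPKM with mimics-NC and 33.2, 36.7 and 34.9 RPKM with the mimic, a log2 fold change of -0.42 (SE 0.052, adjusted p = 0.00241). For each of these the lowest mimics-NC library exceeded the highest mimic library by a wide margin. MCM5, which forms the gate of the ring with MCM2, fell by 21.6% and the catalytic MCM6 by 18.5% of mean RPKM, with adjusted p of 0.00298 and 0.00604. MCM3 (chromosome 6, 52264009 to 52284881, minus strand), the most abundant of all 57 transcripts per length, measured 178, 176 and 178 RPKM with mimics-NC and 154, 170.0 and 174 RPKM with the mimic. The mimics-NC values of MCM3 were almost equal and all 3 mimic values lay below them, but spread more widely. Its log2 fold change of -0.095 had an interval of -0.21 to 0.021 and an adjusted p of 0.211. Because MCM3 is so abundant, the 6 ring transcripts summed to 14.1% less with the mimic, while the median of the 6 log2 fold changes was -0.37.

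Helicase activation held some of the deepest falls, with 9 of its 11 genes lower. RECQL4, a helicase needed for initiation (chromosome 8, 144511288 to 144517845, minus strand), measured 6.21, 5.77 and 5.32 RPKM with mimics-NC and 3.37, 3.76 and 3.57 RPKM with the mimic, a log2 fold change of -0.62 (SE 0.066, adjusted p = 0.00129). TICRR, or treslin, through which CDK recruits CDC45 (chromosome 15, 89575482 to 89631056, plus strand), measured 5.48, 5.19 and 5.24 RPKM with mimics-NC and 3.16, 3.47 and 3.27 RPKM with the mimic, a log2 fold change of -0.61 (SE 0.051, adjusted p = 0.000535). GINS1, a subunit of the GINS complex (chromosome 20, 25407727 to 25452628, plus strand), measured 6.37, 6.37 and 6.87 RPKM with mimics-NC and 4.76, 3.85 and 4.50 RPKM with the mimic, a log2 fold change of -0.54 (SE 0.076, adjusted p = 0.00389). Mimic libraries held 33.2% to 38.1% less of these transcripts, beyond the spread of either group. GINS4, also a subunit, had a log2 fold change of -0.52, from 5.38 ± 0.273 to 3.60 ± 0.337 RPKM (mean ± SD, n = 3). The remaining subunits GINS2 and GINS3, both under 2.1 RPKM, had overlapping groups, with -0.23 (interval -0.50 to 0.039) and -0.18 (interval -0.41 to 0.041). CDC45, which completes the active helicase, fell from 25.3 ± 1.04 to 20.3 ± 0.0914 RPKM. MCM10, which stabilises the active helicase, fell from 18.3 ± 0.561 to 13.6 ± 0.469 RPKM, and the scaffold TOPBP1 from 12.5 ± 0.400 to 10.1 ± 0.369 RPKM.

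The kinase DDK, made of the catalytic CDC7 and its activating partner DBF4, had a large fall in DBF4 and a small one in CDC7. DBF4 (chromosome 7, 87876216 to 87909541, plus strand) measured 10.6, 9.27 and 10.5 RPKM with mimics-NC and 7.17, 6.65 and 7.04 RPKM with the mimic, a log2 fold change of -0.51 (SE 0.060, adjusted p = 0.00187). CDC7 (chromosome 1, 91500893 to 91525764, plus strand) measured 10.8, 10.5 and 10.6 RPKM with mimics-NC and 10.0, 9.10 and 9.41 RPKM with the mimic, a log2 fold change of -0.16 (SE 0.045, adjusted p = 0.0466). The call of CDC7 is marginal. It was lost in 5 of the 6 fits that left out a library, all but the one without mimic replicate 1, with adjusted p up to 0.125. It was also lost without a filter (0.0987), without the intensity trend (0.0639) and with a replicate block (0.0639).

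**Figure D2:**
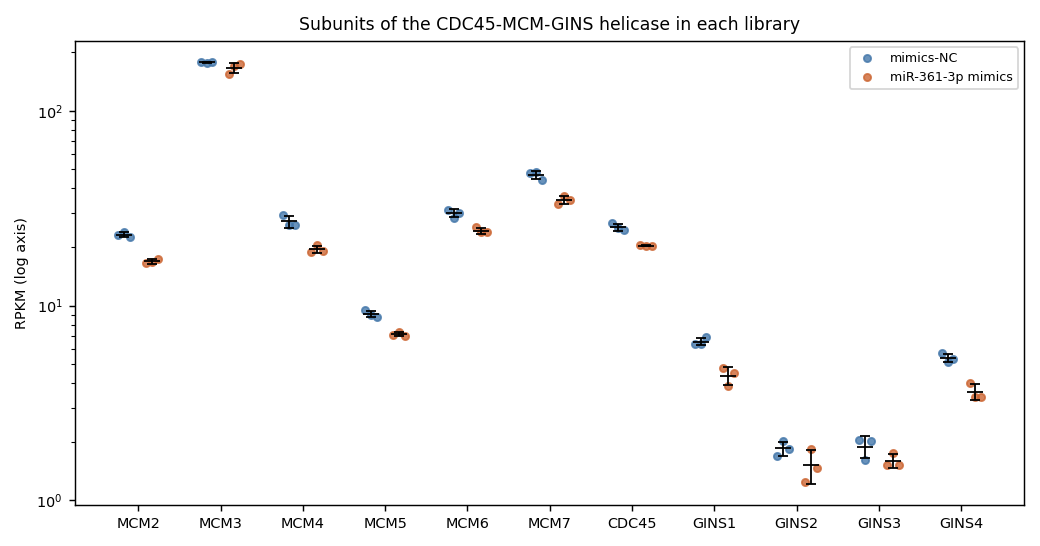
RPKM on a log axis of the 11 genes for the CDC45-MCM-GINS helicase, with 1 point per library, 3 per group, and a black bar for the mean with its SD. MCM3 stands far above the others at 154 to 178 RPKM, with groups that lie close but do not overlap. MCM2, MCM4, MCM5, MCM6, MCM7, CDC45, GINS1 and GINS4 also separate. GINS2 and GINS3 lie near 2 RPKM and overlap.

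In each of the 3 polymerases exactly 1 transcript fell by limma. For polymerase alpha-primase it was POLA1, the catalytic subunit (chromosome X, 24693919 to 24996986, plus strand), at 24.4, 25.7 and 26.0 RPKM with mimics-NC and 20.6, 19.0 and 20.6 RPKM with the mimic, a log2 fold change of -0.33 (SE 0.046, adjusted p = 0.00358). PRIM2, the regulatory primase subunit, measured 3.23, 3.48 and 3.69 RPKM with mimics-NC and 2.69, 3.03 and 2.98 RPKM with the mimic, a log2 fold change of -0.22 (SE 0.066, adjusted p = 0.0522). POLA2, the B subunit, measured 1.87, 1.97 and 1.59 RPKM with mimics-NC and 1.57, 1.40 and 1.62 RPKM with the mimic, with overlapping groups and an adjusted p of 0.167. The groups of PRIM2 did not overlap. The catalytic primase PRIM1 had 6.56, 6.51 and 6.16 RPKM with mimics-NC and 5.69, 5.62 and 6.08 RPKM with the mimic, without overlap, and a log2 fold change of -0.13 (interval -0.25 to -0.022). PRIM2 passed by voom (adjusted p = 0.0161) and without mimics-NC replicate 1 (0.0494).

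In polymerase delta the gene that fell was POLD3 and not the catalytic POLD1. POLD3, which contacts PCNA (chromosome 11, 74493851 to 74669117, plus strand), measured 12.4, 12.8 and 12.7 RPKM with mimics-NC and 9.62, 8.57 and 8.52 RPKM with the mimic, a log2 fold change of -0.48 (SE 0.053, adjusted p = 0.00143). POLD1, the catalytic subunit, measured 17.0, 22.1 and 19.5 RPKM with mimics-NC and 16.8, 15.5 and 15.3 RPKM with the mimic. The mimics-NC value of replicate 1 was close to the highest mimic library, and the log2 fold change of -0.29 (SE 0.090, adjusted p = 0.061) did not pass. Without mimics-NC replicate 1 POLD1 gave an adjusted p of 0.0168, and by voom 0.00157. POLD2, the B subunit, had 11.0, 10.4 and 10.1 RPKM with mimics-NC and 10.3, 9.88 and 10.1 RPKM with the mimic, with overlapping groups and a log2 fold change of -0.058 (interval -0.16 to 0.044).

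Polymerase epsilon ranged from a clear fall to a positive value. POLE, the catalytic subunit (chromosome 12, 132623753 to 132687365, minus strand), measured 7.65, 7.25 and 7.29 RPKM with mimics-NC and 5.78, 5.30 and 5.66 RPKM with the mimic, a log2 fold change of -0.38 (SE 0.048, adjusted p = 0.00241). POLE2, which joins the polymerase to the helicase, measured 2.77, 2.73 and 2.46 RPKM with mimics-NC and 2.09, 2.21 and 2.32 RPKM with the mimic, without overlap but with an adjusted p of 0.0527. POLE3, a histone-fold subunit that also serves in a chromatin remodelling complex, measured 79.7, 80.2 and 75.4 RPKM with mimics-NC and 65.8, 71.5 and 73.2 RPKM with the mimic, an adjusted p of 0.0583. Both narrowly missed the threshold. POLE2 passed under median-of-ratios scaling and without the intensity trend, and POLE3 passed under 4 alternatives, median-of-ratios scaling, quantile normalization, voom and a filter at 5 RPKM. POLE4, the partner of POLE3, measured 2.48, 2.83 and 2.17 RPKM with mimics-NC and 2.06, 3.37 and 3.10 RPKM with the mimic. Its mimic libraries straddled the mimics-NC values, and the interval of its log2 fold change, -0.24 to 0.52, is the widest among the members.

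The sliding clamp and most of its loader fell. PCNA, the clamp itself (chromosome 20, 5114953 to 5126626, minus strand), measured 36.2, 32.4 and 33.7 RPKM with mimics-NC and 26.2, 26.2 and 26.0 RPKM with the mimic, a log2 fold change of -0.38 (SE 0.045, adjusted p = 0.00194). RFC4, a small subunit of the loader (chromosome 3, 186789880 to 186807058, minus strand), measured 16.7, 15.6 and 16.1 RPKM with mimics-NC and 12.1, 12.5 and 11.7 RPKM with the mimic, a log2 fold change of -0.40 (SE 0.042, adjusted p = 0.00122). RFC5, another small subunit (chromosome 12, 118013588 to 118033130, plus strand), measured 9.21, 8.52 and 8.87 RPKM with mimics-NC and 6.51, 6.90 and 6.63 RPKM with the mimic, a log2 fold change of -0.38 (SE 0.045, adjusted p = 0.00179). All mimic libraries were below the mimics-NC range for PCNA, RFC3, RFC4 and RFC5, and the mean RPKM of RFC3, also a small subunit, fell by 19.6%. RFC1, the large subunit that is particular to the canonical loader, measured 28.5, 27.9 and 29.0 RPKM with mimics-NC and 27.0, 26.7 and 28.2 RPKM with the mimic. Its groups overlapped, with an interval of -0.14 to 0.028 around -0.057. The small subunit RFC2 had 1 low mimics-NC library, replicate 1 at 17.2 RPKM against 22.0 in each of the others, and gave -0.12 (adjusted p = 0.414). Without that library the RFC2 fold change was -0.24 with an adjusted p of 0.0335.

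RPA, the trimer that coats exposed strands, had its larger subunits lower and its smallest not. RPA2, the subunit phosphorylated after DNA damage (chromosome 1, 27891524 to 27914746, minus strand), measured 21.5, 20.0 and 20.8 RPKM with mimics-NC and 14.6, 17.0 and 15.2 RPKM with the mimic, a log2 fold change of -0.40 (SE 0.061, adjusted p = 0.00485). RPA1, the largest and the main binder of DNA (chromosome 17, 1829702 to 1900082, plus strand), measured 8.25, 7.45 and 7.33 RPKM with mimics-NC and 6.10, 6.14 and 6.19 RPKM with the mimic, a log2 fold change of -0.30 (SE 0.052, adjusted p = 0.00838). Both had separate groups, and the RPA1 values of the mimic libraries were nearly identical. RPA3, the smallest, measured 12.8, 13.5 and 14.0 RPKM with mimics-NC and 14.0, 15.2 and 14.2 RPKM with the mimic, the only member whose mimic libraries all lay above the mimics-NC libraries, though the nearest libraries of the groups were almost equal. Its log2 fold change of 0.10 (interval -0.012 to 0.22, adjusted p = 0.178) did not pass.

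All 3 genes of Okazaki fragment maturation fell. FEN1, the endonuclease that cuts the displaced flap (chromosome 11, 61792637 to 61797244, plus strand), measured 38.4, 36.2 and 35.1 RPKM with mimics-NC and 22.4, 23.5 and 21.8 RPKM with the mimic, a log2 fold change of -0.68 (SE 0.047, adjusted p = 0.00029). LIG1, the ligase that seals the nick (chromosome 19, 48115445 to 48170603, minus strand), measured 30.8, 30.6 and 29.5 RPKM with mimics-NC and 20.8, 21.4 and 21.5 RPKM with the mimic, a log2 fold change of -0.50 (SE 0.034, adjusted p = 0.00029). DNA2, the nuclease and helicase for long flaps (chromosome 10, 68414064 to 68472121, minus strand), measured 4.08, 4.02 and 3.93 RPKM with mimics-NC and 2.92, 2.88 and 2.51 RPKM with the mimic, a log2 fold change of -0.46 (SE 0.062, adjusted p = 0.00311). The groups were far apart for each, and the sum over the 3 genes was 34.3% lower, the deepest of the 12 complexes by this sum.

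The chromatin genes fell as well, all 4 of them, and they include the largest change among the members. CHAF1B, the middle subunit of the histone chaperone CAF-1 (chromosome 21, 36385378 to 36419015, plus strand), measured 5.83, 5.81 and 6.27 RPKM with mimics-NC and 3.38, 3.50 and 3.41 RPKM with the mimic, a log2 fold change of -0.72 (SE 0.047, adjusted p = 0.00029). UHRF1, which reads hemimethylated DNA behind the fork (chromosome 19, 4903080 to 4962154, plus strand), measured 19.4, 20.5 and 19.3 RPKM with mimics-NC and 12.1, 12.1 and 11.9 RPKM with the mimic, a log2 fold change of -0.69 (SE 0.038, adjusted p = 0.000157). The 3 mimic libraries of each gene were close to each other and far below the mimics-NC range. CHAF1A, the large CAF-1 subunit (chromosome 19, 4402662 to 4445018, plus strand), measured 33.1, 34.3 and 33.2 RPKM with mimics-NC and 25.0, 28.5 and 27.1 RPKM with the mimic, a log2 fold change of -0.32 (SE 0.051, adjusted p = 0.00586). DNMT1, the maintenance methyltransferase that UHRF1 brings to new DNA (chromosome 19, 10133345 to 10231286, minus strand), measured 51.9, 53.3 and 54.8 RPKM with mimics-NC and 41.1, 43.0 and 45.4 RPKM with the mimic, a log2 fold change of -0.30 (SE 0.045, adjusted p = 0.00445). CHAF1A and DNMT1 thus had smaller log2 fold changes than their partners CHAF1B and UHRF1.

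Of the proteins that travel with the fork and signal its arrest, CLSPN, WDHD1 and TIMELESS fell and TIPIN did not pass. CLSPN, or claspin, which passes the checkpoint signal from ATR to CHK1 (chromosome 1, 35720218 to 35769967, minus strand), measured 45.1, 46.1 and 47.5 RPKM with mimics-NC and 32.1, 32.8 and 32.6 RPKM with the mimic, a log2 fold change of -0.50 (SE 0.033, adjusted p = 0.00029). WDHD1, which links polymerase alpha to the helicase (chromosome 14, 54938950 to 55027105, minus strand), measured 8.05, 8.49 and 8.78 RPKM with mimics-NC and 6.22, 5.74 and 5.92 RPKM with the mimic, a log2 fold change of -0.47 (SE 0.049, adjusted p = 0.00122). TIMELESS, of the fork protection complex (chromosome 12, 56416373 to 56449403, minus strand), measured 54.5, 51.1 and 52.5 RPKM with mimics-NC and 42.0, 42.7 and 42.5 RPKM with the mimic, a log2 fold change of -0.31 (SE 0.035, adjusted p = 0.00152). These 3 genes separated the groups fully. TIPIN, the obligate partner of TIMELESS, measured 15.2, 14.5 and 17.0 RPKM with mimics-NC and 14.4, 15.1 and 14.1 RPKM with the mimic, with overlapping groups and an interval of -0.24 to 0.055 around -0.092.

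Partners of one complex or process had unequal fold changes in several cases, and their ratios within each library were compared. Some pairs, such as MCM10 with MCM3 and LIG1 with FEN1, are not subunits of one complex. Plain RPKM ratios do not depend on scaling between libraries, whereas log2 ratios with 0.5 added to each RPKM do. For 17 pairs of members the test was an exact two-sided permutation test over the 6 libraries on log2(RPKM + 0.5), whose smallest possible p is 0.1, so that no pair could pass. Groups lay apart on that scale for 10 pairs and as plain RPKM ratios for 9, with 8 pairs in common. The share of such pairs among all genes tested was not computed, so these counts have no background beside them and only describe the pairs. Each of the 8 had p = 0.1 by the exact permutation test (0.17 after Benjamini-Hochberg adjustment over the 17 pairs). The ratio of CHAF1A to CHAF1B was 5.69, 5.91 and 5.30 with mimics-NC and 7.40, 8.12 and 7.95 with the mimic. The ratio of UHRF1 to DNMT1 was 0.374, 0.385 and 0.352 with mimics-NC and 0.293, 0.281 and 0.262 with the mimic. CDC7 to DBF4 gave 1.03, 1.13 and 1.01 with mimics-NC and 1.40, 1.37 and 1.34 with the mimic. In the first and the last the less reduced partner is the numerator, so the ratio is higher in every mimic library. ORC1 to ORC2 gave 0.335, 0.295 and 0.298 with mimics-NC and 0.208, 0.261 and 0.209 with the mimic, and RFC4 to RFC1 gave 0.585, 0.559 and 0.555 with mimics-NC and 0.449, 0.466 and 0.416 with the mimic. MCM10 to MCM3, TIPIN to TIMELESS and LIG1 to FEN1 complete the 8, with log2 differences of -0.32, 0.22 and 0.18. By contrast MCM2 to MCM7 was 0.482, 0.493 and 0.510 with mimics-NC and 0.498, 0.454 and 0.497 with the mimic, and these values overlapped, as did those of PRIM1 to PRIM2 and CDT1 to GMNN.

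**Figure D3:**
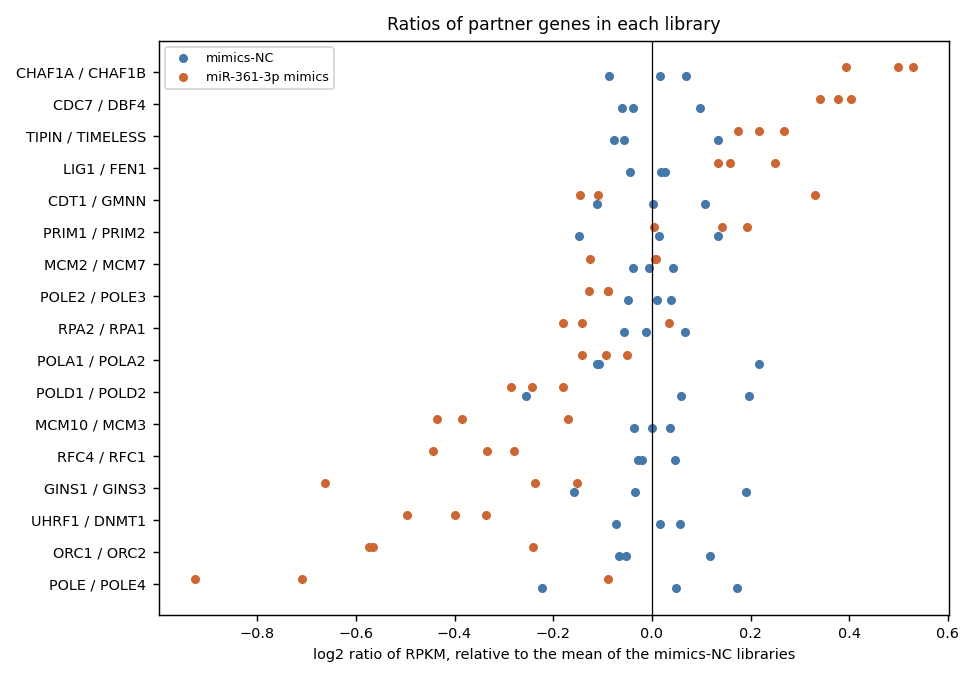
Log2 of the RPKM ratio of 17 partner pairs (horizontal axis, set to 0 at the mean of the mimics-NC libraries), with 1 point per library and 3 libraries per group. In 9 pairs the groups lie apart, from ORC1 to ORC2 on the low side to CHAF1A to CHAF1B on the high side, and in 8 they overlap.

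Promoters were searched because so many members moved together. RefSeq promoter sequences (250 bases before to 50 after the start, GRCh38.p14) were matched by symbol for 49 of the 57 members. MCM4, MCM5, GINS4, RECQL4, POLD3, RPA2, RPA3 and DNA2 were not matched. E2F-like words, TTTCCCGC, TTTGGCGC, TTTCGCGC or TTTGCCGC on either strand, stood in 22 of the 49 (44.9%), against 3.33% of all 27305 promoters in the table and 5.81% of the 8067 promoters of genes tested. The words can share bases with each other. CCAAT was present in 27 of the 49 (55.1%, against 35.7% and 37.9%), and the words TTTGAA or TTCGAA, found in the promoters of many mitotic genes, in 2 (4.08%, against 16.6% and 11.4%). The 22 genes with an E2F-like word hold 25 such stretches, and 19 of these begin within 60 bases of the annotated start. A match is a description of letters, not of binding.

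The following 28-base windows are shown to place the words, in capitals, in subunits that fell and in partners that did not. Each is written along the gene's strand on GRCh38.p14, from RefSeq.
CDC6, chr17:40287876-40287903, plus strand: gccattcggaTTTGGCGCgagcgcggct
MCM2, chr3:127598403-127598430, plus strand: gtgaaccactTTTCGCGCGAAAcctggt
MCM6, chr2:135876516-135876543, minus strand: attggtcaggTTTGGCGCGAAAtctcca
MCM7, chr7:100101389-100101416, minus strand: gggggcgacgTTTCGCGCcaatttcggt
MCM3, chr6:52284729-52284756, minus strand: gttcggaagtTTTCGCGCcggggtggag
GINS1, chr20:25407668-25407695, plus strand: gctttgttcgGCGCCAAAgcgcggagcg
GINS3, chr16:58392456-58392483, plus strand: gtccccgggcGCGGGAAAcgagtttcaa
POLE, chr12:132687343-132687370, minus strand: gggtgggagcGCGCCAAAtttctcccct
POLE4, chr2:74958602-74958629, plus strand: tccagcccgcGCGGGAAAgggcctgcgc
PCNA, chr20:5126664-5126691, minus strand: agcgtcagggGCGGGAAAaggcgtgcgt
UHRF1, chr19:4909477-4909504, plus strand: ccgagttttcGCGGGAAAaaaatcagag
CLSPN, chr1:35769966-35769993, minus strand: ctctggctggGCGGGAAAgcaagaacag
In MCM2 and MCM6 a word and another on the opposite strand overlap, which makes a stretch of 12 capitals. MCM6 has a second such stretch with the same capitals that starts at -152 from the annotated start, where the one shown starts at -90. The words shown for MCM7, MCM3, GINS3 and CLSPN start at -9, -4, -5 and -5. MCM7 and MCM3 each hold a further word, not shown, at -187 and -174.

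The promoter of UHRF1 is given whole, as the member with the largest fall among those with an E2F-like word. Its word, in capitals, begins at -14 from the start.
UHRF1, chr19:4909251-4909550, plus strand: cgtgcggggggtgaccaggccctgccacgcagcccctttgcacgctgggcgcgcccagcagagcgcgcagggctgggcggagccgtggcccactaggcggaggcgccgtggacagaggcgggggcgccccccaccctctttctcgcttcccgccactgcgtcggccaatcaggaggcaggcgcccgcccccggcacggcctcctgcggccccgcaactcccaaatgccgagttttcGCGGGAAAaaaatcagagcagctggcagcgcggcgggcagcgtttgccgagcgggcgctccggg

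Such words were found both in members that fell and in members that did not pass. One was present in 15 of the 31 matched genes that fell and in 7 of the 18 that did not pass. The median log2 fold change was -0.30 both in the 22 genes with a word and in the 27 without. CHAF1B and FEN1, among the 3 deepest falls, have none in this window, whereas POLE4, with the highest value, has one. No match says only that these letters are not in this window.

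**Figure D4:**
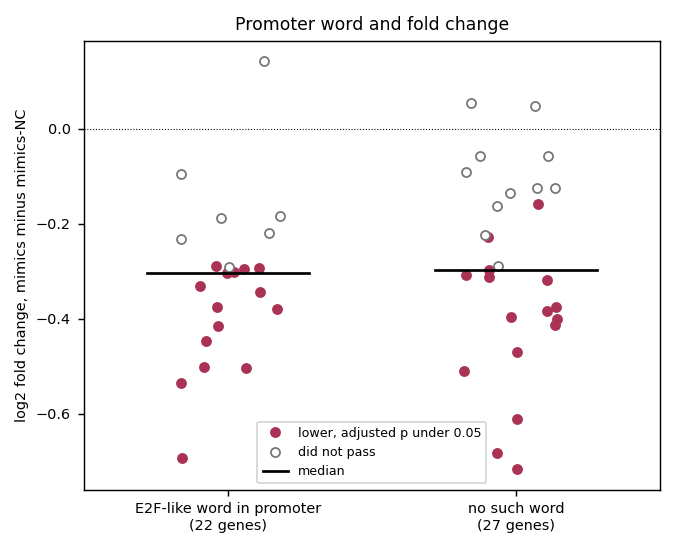
Log2 fold change (vertical axis, log2(RPKM + 0.5)) of 49 replication genes, 22 with an E2F-like word in the promoter window and 27 without, 1 point per gene. Filled points fell by limma, and black lines are the medians, -0.30 in both columns.

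Sites for the microRNA itself stood in few of the members. The annotated 3′ UTRs (GENCODE 29, 1 coding transcript per gene, the one with the longest coding sequence) were searched for the 8mer CTGGGGGA, the 7mer-m8 CTGGGGG and the 7mer-A1 TGGGGGA. At least 1 site stood in 9 of the 57 members (15.8%), against 22.3% of 9463 genes tested with a 3′ UTR, and an 8mer in 1 member, against 5.00%. These shares were not matched for 3′ UTR length, which had a median of 740 bases in the members and was not summarised over all genes. Of the 38 genes that fell, 34 hold no site there. The median log2 fold change was -0.29 with a site and -0.31 without. CHAF1B and RECQL4, which fell (log2 fold changes of -0.72 and -0.62), hold a 7mer-A1 only. So do RFC1, RFC2 and ORC4, which did not pass. The sites of 4 of these 9 members, those with an 8mer or a 7mer-m8, are shown with the match in capitals. They are written as in the spliced transcript, with their first base counted from 1 after the stop codon.
GINS2, chromosome 16, 8mer at base 26: gtgcaggcggcttgCTGGGGGAtgtgag
CDT1, chromosome 16, 7mer-m8 at base 3: gcCTGGGGGccactg
CDT1, chromosome 16, 7mer-m8 at base 281: agatccagcaccccCTGGGGGgccatc
CDT1, chromosome 16, 7mer-m8 at base 304: catcgggagtgtggCTGGGGGtgaagg
POLE, chromosome 12, 7mer-m8 at base 391: gggaggaaaagcccCTGGGGGcttctg
WDHD1, chromosome 14, 7mer-m8 at base 970: ataaaggcagtgtaCTGGGGGtgggag
GINS2 has the only 8mer and CDT1 has 3 sites, and neither passed by limma at their low levels of under 2.1 RPKM. CDT1 passed by voom (adjusted p = 0.0157). Of the 9 members with a site 4 fell by limma, and the part of the sites in the changes was not tested.

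Further genes of the pathway were read from lists of licensing regulators, fork companions, histone chaperones, helicase unloading and the replication stress kinases. Of 53 such genes 50 were abundant enough to test, and 22 fell and 1 rose by limma, against 9.85% and 11.7% of all genes tested. The same shares stand beside the limma counts of each list below. The median log2 fold change of the 50 genes was -0.098. Among fork companions 9 of 13 fell and 0 rose by limma (1 higher at an unadjusted p under 0.05 and 1 by voom, TOP1). CHTF18, of the alternative clamp loader for cohesion, fell from 5.41 ± 0.0934 to 3.86 ± 0.336 RPKM. PCLAF, the PCNA-associated factor, listed under its older symbol KIAA0101, fell from 10.5 ± 1.20 to 7.58 ± 0.301 RPKM, and RNASEH2A, of the enzyme that removes ribonucleotides, from 18.2 ± 0.972 to 13.8 ± 1.22 RPKM. CHTF18 and PCLAF, named for their large falls, went the same way as PCNA. Of the 13 fork companions tested, 10 had negative log2 fold changes and 3 positive ones. CHTF8, at 0.098, and POLD4, at 0.19, were among the positive ones and did not pass by limma. TOP1, which relaxes DNA ahead of the fork, had 125 ± 3.63 and 138 ± 8.72 RPKM (adjusted p = 0.0916) and passed as higher without mimic replicate 1.

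Among licensing regulators 6 of 13 fell and 0 rose by limma (0 higher at an unadjusted p under 0.05 and 0 by voom). SKP2, which marks CDT1 for destruction, fell from 5.14 ± 0.221 to 3.69 ± 0.437 RPKM, the helicase MCM8 from 10.5 ± 0.222 to 8.10 ± 0.567 RPKM and the MCM-binding protein MCMBP from 5.90 ± 0.0939 to 4.86 ± 0.233 RPKM. DTL, DONSON and CDK2 fell too, and their calls were lost in 4 or 5 of the 6 fits with a library left out. Among histone chaperones and methylation partners 4 of 10 fell and 0 rose by limma (0 at an unadjusted p under 0.05 and 0 by voom). ASF1B, which hands histones to CAF-1, had a log2 fold change of -0.63, from 2.49 ± 0.328 to 1.44 ± 0.343 RPKM, NASP fell from 135 ± 2.03 to 112 ± 2.73 RPKM and HELLS, a remodeller for DNA methylation, from 13.1 ± 0.839 to 10.8 ± 0.278 RPKM. The ASF1B call did not hold when mimics-NC replicate 1, mimics-NC replicate 3 or mimic replicate 1 was left out (highest adjusted p = 0.0671), and that of HELLS without mimics-NC replicate 2 (0.0523). DNAJC9, a histone H3 co-chaperone, fell from 27.2 ± 0.397 to 24.0 ± 1.40 RPKM, and its call was lost in 5 of the 6 fits with a library left out (highest adjusted p = 0.103). NASP alone of the 4 passed in each of these fits. The related ASF1A measured 5.74 ± 0.558 and 6.02 ± 0.261 RPKM and did not pass.

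In helicase unloading 3 of 6 fell and 0 rose by limma (0 at an unadjusted p under 0.05 and 0 by voom). These were LRR1, the adaptor that marks the helicase at termination, from 6.54 ± 0.175 to 4.53 ± 0.658 RPKM, the ligase TRAIP from 5.74 ± 0.256 to 4.11 ± 0.284 RPKM, and CUL2, whose call was lost with any 1 library left out. In the replication stress kinase list 0 of 8 genes were lower by limma (1 at an unadjusted p under 0.05 and 0 by voom) and 1 was higher (2 at an unadjusted p under 0.05 and 2 by voom), beside 9.85% and 11.7% of all genes tested. The gene that rose was ETAA1, an activator of ATR that binds RPA, at 9.08, 9.17 and 9.32 RPKM with mimics-NC and 12.3, 12.6 and 12.2 RPKM with the mimic, a log2 fold change of 0.41 (SE 0.035, adjusted p = 0.000587). All 3 mimic libraries of ETAA1 exceeded the mimics-NC libraries. ATR itself measured 2.51 ± 0.0149 and 2.74 ± 0.239 RPKM and CHEK1, the kinase downstream of claspin, 7.16 ± 0.368 and 6.83 ± 0.586 RPKM, neither past the threshold.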

How the data were processed

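Messenger RNA of 6 Huh7 libraries (35020139 to 52977132 assigned reads) was measured with a stranded kit, per the labels. The authors deposited RPKM for 33707 genes, with gene length and GRCh38 positions; RPKM times length in kilobases sums to 1000000 in each library, so no scaling beyond the total is present. Trimmomatic 0.36, Subread 1.5.1 (with featureCounts) and edgeR 3.12.1 are named, per the submitters' processing notes. Neither aligner nor annotation release nor strand setting is given in the sources used here.

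The 13158 genes averaging 1 RPKM or more were fitted as log2(RPKM + 0.5) with limma 3.58.1 (R 4.3.3, intensity trend, two-sided, Benjamini-Hochberg over all genes tested). The added 0.5 draws fold changes of low genes toward 0. Alternatives were other pseudocounts, filters, scalings and thresholds, no trend, voom on whole reads recovered from RPKM and length (100% of values within 0.01 of a whole number), a replicate block, and leaving out each library. On simulated data of 13145 genes with this design, 31.5% of 1.25-fold, 82.7% of 1.5-fold and 92.4% of 2-fold changes were recovered, with 12 false calls. Only 54, 75 and 66 genes were changed by these sizes there, whereas 2835 genes passed in these data. The recovery rates may therefore not carry over. Members and lists were chosen with earlier results of these data known. Values in each library are given for up to 3 members per complex with the largest change and the one nearest 0, for ORC2, chosen after its values were seen, for DBF4, the partner of CDC7, and for ETAA1, the 1 pathway gene that rose. Up to 3 genes per pathway list that passed with the largest change are named by that rule; the others named were chosen after their values were seen. Promoters and the microRNA come from RefSeq, 3′ UTRs from GENCODE 29. One site sequence is not reported here.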

Additional observations from a re-analysis of the deposited data

How the results depend on the processing

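The number of members that fell was 38 and lay between 35 (of 44 left by a filter at 5 RPKM) and 42 (voom on recovered reads) under the other settings, and between 37 and 40 with 1 library left out; 0 members rose under any of them. Of the 38 genes, 37 passed in each of the 6 fits with 1 library left out, CDC7 being the exception. The replicate numbers did not pair the libraries (correlations of same-numbered deviations -0.052, -0.016 and 0.023), and with a replicate block 37 members fell and 18 pathway genes fell. Pathway genes that fell numbered 22, and 12 at an adjusted p under 0.01. Those that rose numbered 1, with 3 by voom and 1 to 2 with 1 library left out. Over all genes 2835 passed, 1716 without a filter, 1160 at an adjusted p under 0.01, and 1780 to 2150 with 1 library left out, fewest without mimics-NC replicate 2 (1780), mimic replicate 3 (1820) and mimics-NC replicate 3 (1859). With a filter at 5 RPKM, 2071 of 6636 genes tested passed. Why these totals differ was not tested. The ratio of CDT1 to GMNN ranged from -0.011 to 0.17 and that of MCM2 to MCM7 from -0.053 to 0.013 (log2 difference) with 1 library left out, so neither has a settled sign. Scaling by median of ratios or quantiles changed the log2 fold changes of all genes tested by a median of -0.013 and -0.0069. The widest intervals among the members are those of POLE4, GINS2, CDT1 and RFC2, the last at 20.4 RPKM with mimics-NC; whether depth sets these widths was not tested.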

Other observations

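Rows of antisense or neighbouring transcripts share exon positions with 25 of the 57 members, on the opposite strand for 20 and on the same strand for 8, and the strand setting of the counting is not given in the sources used here. There are 33 such rows, of which 24 were abundant enough to test, and 6 fell and 3 rose by limma (adjusted p under 0.05). Over all genes tested 9.85% fell and 11.7% rose. Members that fell overlap 21 of the rows, of which 15 were tested, and 6 fell and 1 rose. That 1 row is EIF4A2, opposite RFC4. UMAD1 and RP11-505D17.1, with limma log2 fold changes of 0.21 and 0.19 (adjusted p = 0.0326 and 0.0414), rose opposite RPA3. The 6 rows that fell include the following. RP11-435D7.3 shares 280 exonic bases with CLSPN (5.17% of the exonic bases of CLSPN) on the opposite strand. It measured 127 ± 0.583 RPKM with mimics-NC and 86.8 ± 2.73 RPKM with the mimic (mean ± SD, n = 3), while CLSPN was 29.7% lower. CTB-50L17.5, opposite CHAF1A over 81 bases, measured 26.4 ± 1.39 and 20.7 ± 1.13 RPKM. CTC-453G23.5, opposite LIG1 over 179 bases, measured 6.90 ± 0.00860 and 4.99 ± 0.463 RPKM. Opposite GINS4 lie RP11-360L9.4, at 11.5 ± 0.915 and 7.64 ± 0.244 RPKM, and RP11-360L9.7, at 3.06 ± 0.389 and 1.68 ± 0.179 RPKM, the latter over 21.2% of the exonic bases of GINS4. The rows named here were chosen after their values were seen, and whether they hold reads of the member gene was not tested. By contrast NACA, which shares 33 bases with PRIM1 on the same strand, measured 92.8 ± 2.36 and 94.6 ± 0.765 RPKM.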
